A study of Mus musculus with 2 samples.

Results

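The 10 genes described here encode integrins and adhesion molecules of leukocytes: the integrin chains Itgam, Itgax, Itgal, Itgb2, Itga4, Itgb1, Itgav and Itga5, the integrin ligand Icam1 and the hyaluronan receptor Cd44. They were taken as a list of symbols, each matched to its row in the expression tables, and all 10 were found among 34745 listed gene IDs. Messenger RNA had been sequenced in 2 libraries of peritoneal macrophages from C57BL/6 mice, 1 labelled Kdm2b-/- and 1 labelled wild type. The macrophages of both had been drawn into the peritoneal cavity with thioglycollate, an irritant broth, harvested 4 days later, and exposed to 100 ng/ml of bacterial lipopolysaccharide (LPS). The exposure is 4 h in one label and 3 h in another. The sources used here do not give the sex or age of the mice, whether animals were pooled, or the allele behind the knockout. Values are given below by these labels, as the Kdm2b-/- label and WT. With 1 library per group there was no replicate and no test across samples was possible, so every difference is one between these libraries. No unstimulated library was used here, and the values are levels under LPS, not responses to it.

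Integrins are receptors made of one α and one β chain, which only reach the cell surface as a pair. They bind matrix proteins or counter-receptors on other cells outside the cell, and through talin and kindlin they hold the actin skeleton inside it. The β2 chain, from Itgb2, is restricted to leukocytes and pairs with αM (Itgam; with β2 the complement receptor Mac-1), αX (Itgax; CD11c) and αL (Itgal; with β2 LFA-1). Icam1 is a cell-surface ligand of LFA-1 and Mac-1 and a classical target of NF-kappaB, the transcription factor family that LPS activates. The β1 chain, from Itgb1, is found on most cells and pairs with α4 (Itga4), a receptor for VCAM-1 and fibronectin, and with α5 (Itga5), a fibronectin receptor. The αv chain, from Itgav, pairs with several β chains to bind vitronectin and other proteins with an RGD sequence, and can release active TGF-beta from its latent form.

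Promoter windows of 8 of the 10 genes were found in RefSeq (GRCm38.p6), each from 250 bases before to 50 bases after the annotated start; Itgal and Itgb2 were not among them. The 5 shown belong to the most abundant gene (Icam1), the genes with the highest ratios between the libraries (Itgav, Itga5 and Itga4) and Itgam, whose start lies beside that of an overlapping gene. They lie at chr9:21015690-21015989 on the plus strand (Icam1), chr2:83724147-83724446 on the plus strand (Itgav), chr15:103366742-103367041 on the minus strand (Itga5), chr2:79255176-79255475 on the plus strand (Itga4) and chr7:128062390-128062689 on the plus strand (Itgam). Each is written in the direction of transcription, and capitals mark exact matches, on either strand, to 7 short motifs.
Icam1: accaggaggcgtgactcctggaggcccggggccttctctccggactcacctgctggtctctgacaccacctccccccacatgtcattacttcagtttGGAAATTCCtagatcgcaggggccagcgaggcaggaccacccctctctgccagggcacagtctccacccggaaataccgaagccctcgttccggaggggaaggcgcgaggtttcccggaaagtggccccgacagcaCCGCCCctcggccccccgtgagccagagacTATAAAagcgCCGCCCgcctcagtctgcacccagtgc
Itgav: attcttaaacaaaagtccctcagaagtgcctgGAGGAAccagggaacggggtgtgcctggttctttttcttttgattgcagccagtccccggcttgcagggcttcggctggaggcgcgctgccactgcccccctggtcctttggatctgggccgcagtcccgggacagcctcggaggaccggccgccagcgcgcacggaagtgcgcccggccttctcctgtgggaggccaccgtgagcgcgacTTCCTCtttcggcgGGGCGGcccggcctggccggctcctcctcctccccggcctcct
Itga5: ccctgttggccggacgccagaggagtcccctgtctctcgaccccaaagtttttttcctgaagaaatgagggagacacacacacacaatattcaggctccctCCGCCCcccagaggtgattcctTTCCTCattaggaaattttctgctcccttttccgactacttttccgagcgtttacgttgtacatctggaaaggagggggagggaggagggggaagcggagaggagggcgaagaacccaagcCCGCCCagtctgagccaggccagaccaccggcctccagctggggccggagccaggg
Itga4: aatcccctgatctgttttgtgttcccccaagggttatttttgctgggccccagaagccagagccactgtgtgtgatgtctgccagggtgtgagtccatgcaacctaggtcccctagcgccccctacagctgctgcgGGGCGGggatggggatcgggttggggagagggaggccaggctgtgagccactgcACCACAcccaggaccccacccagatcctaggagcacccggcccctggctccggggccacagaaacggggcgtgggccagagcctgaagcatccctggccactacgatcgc
Itgam: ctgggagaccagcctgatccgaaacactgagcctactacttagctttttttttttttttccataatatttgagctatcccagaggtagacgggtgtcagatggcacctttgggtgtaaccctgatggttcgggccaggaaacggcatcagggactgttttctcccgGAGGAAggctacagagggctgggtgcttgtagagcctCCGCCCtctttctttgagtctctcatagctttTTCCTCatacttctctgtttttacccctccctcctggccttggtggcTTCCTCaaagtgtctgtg
The motifs were the NF-kappaB site GGAAATTCC, the classical longer NF-kappaB site, GAGGAA, the purine box read by the myeloid factor PU.1, the Sp1 box GGGCGG, the TATA box TATAAA, the AP-1 site TGANTCA and the Runx site TGTGGT. GGAAATTCC stood in the Icam1 window, with its first base 153 bases before the start, and in 0.317% of all 32851 windows. The Icam1 start used for the window lies upstream of the gene start given below, 21015985. The Itga5 start used also lies upstream of where its gene begins on the minus strand, 103366763. In the Icam1 window TATAAA began 14 bases after the start used, so these distances depend on the annotation. GAGGAA stood 3 times in the Itgam window and 2 times in that of Itgav, and in 28.3% of all windows. GGGCGG was in 35.7% of all windows, TGTGGT in 16.8%, TATAAA in 13.6%, TGANTCA in 7.81% and the classical NF-kappaB site in 1.63%, which was found in 0 of the 8. None of the capitals overlap between motifs in these windows. A match of letters is a description and does not show that a factor binds there.

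An estimated 26800000 fragments lay behind the Kdm2b-/- label and 27300000 behind WT. Kdm2b itself was not lower in the library labelled Kdm2b-/-: it stood at 0.326 FPKM under the Kdm2b-/- label and 0.205 FPKM under WT, from about 45 and 29 fragments (95% counting interval of the log2 ratio -0.05 to 1.38). A gene-level value cannot show a deleted exon, so the labels were not checked by it, and directions below are those of the library labelled Kdm2b-/-. The Y-linked genes Eif2s3y and Ddx3y stood at 10.2 and 5.72 FPKM under the Kdm2b-/- label and were both listed at 0 under WT, whereas Xist, expressed from the inactive X chromosome, was at 0.00398 FPKM under the Kdm2b-/- label and 8.55 FPKM under WT. The effect of the genotype and that of the sex of the mice therefore cannot be told apart in any value below. Of 9 macrophage markers 8 averaged 1 FPKM or more, and the list summed to 14210 FPKM under the Kdm2b-/- label and 11928 FPKM under WT. Most of both sums lay in listed markers other than those named next. Of the 8, 5 (62.5%) had log2 ratios above 0 and 3 below, with a median of 0.14. Of all genes at that level 63.2% were above 0. Cd68 stood at 1753 FPKM under the Kdm2b-/- label and 1722 FPKM under WT, Adgre1, with the highest ratio, at 56.9 FPKM under the Kdm2b-/- label and 44.3 FPKM under WT, and Csf1r at 33.6 FPKM under the Kdm2b-/- label and 28.2 FPKM under WT. Cd14, a co-receptor for LPS, had the lowest ratio of these markers at 905 FPKM under the Kdm2b-/- label and 1136 FPKM under WT (log2 ratio -0.33).

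The β2 chain gene was level between the libraries and was the second most abundant of the 10. Itgb2 (ENSMUSG00000000290, chromosome 10, 77530252 to 77565708, GRCm38) stood at 369.5 FPKM under the Kdm2b-/- label and 370.2 FPKM under WT, from about 29421 and 29993 fragments. FPKM is the number of fragments divided by transcript length and by the library's mapped total. Which length stands behind a gene with several transcripts was not checked, so comparisons of levels between genes are approximate. On the log2(FPKM + 1) scale used for every ratio here, knockout label over wild type, the difference was -0.003, and the 95% counting interval of the plain FPKM ratio ran from -0.03 to 0.02. That interval covers counting error only.

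Among the α chains of the β2 family, the abundant Itgax was slightly lower and the sparse Itgal higher in the library labelled Kdm2b-/-. Itgax (ENSMUSG00000030789, chromosome 7, 128129547 to 128150657) stood at 85.7 FPKM under the Kdm2b-/- label and 92.6 FPKM under WT, a log2 ratio of -0.11 with an interval of -0.15 to -0.07. It was the only one of the 10 whose interval lay below 0. Itgal (ENSMUSG00000030830, chromosome 7, 127296260 to 127335138) stood at 13.1 FPKM under the Kdm2b-/- label and 9.16 FPKM under WT, a log2 ratio of 0.47 with an interval of 0.41 to 0.61. The fourth α chain of the family, Itgad, was at 0.0144 FPKM under the Kdm2b-/- label and 0 under WT.

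Itgam was level when its own identifier was read alone, and higher in the library labelled Kdm2b-/- when an overlapping gene was added. Its row (ENSMUSG00000030786, chromosome 7, 128062640 to 128118491) held 18.2 FPKM under the Kdm2b-/- label and 18.5 FPKM under WT, a log2 ratio of -0.02 with an interval of -0.11 to 0.06. The annotation places a second protein-coding gene, Gm49368 (ENSMUSG00000108596, 128062683 to 128128160), on the same strand over it. Of the 5024 exonic bases of Itgam, 3450 (68.7%) also belong to Gm49368. That row held 26.0 FPKM under the Kdm2b-/- label and 18.3 FPKM under WT, a log2 ratio of 0.49. The sources used here do not say how the authors' counting divided shared fragments between these rows, so the level and the direction of Itgam are both uncertain. The sum of both rows was 44.2 FPKM under the Kdm2b-/- label and 36.8 FPKM under WT, a log2 ratio of 0.26, and Itgam's own row made up 41.1% of that sum under the Kdm2b-/- label and 50.3% under WT. The sum was chosen after the values were seen, and no other member shares exonic bases with another gene on its strand. On the opposite strand, 1124 exonic bases of Itga4 are shared with Cerkl (0.0721 FPKM under the Kdm2b-/- label and 0.0520 FPKM under WT), 634 of Itgav with Gm13684, listed at 0 in both, and 511 of Icam1 with Gm47079, not used here.

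**Figure D1:**
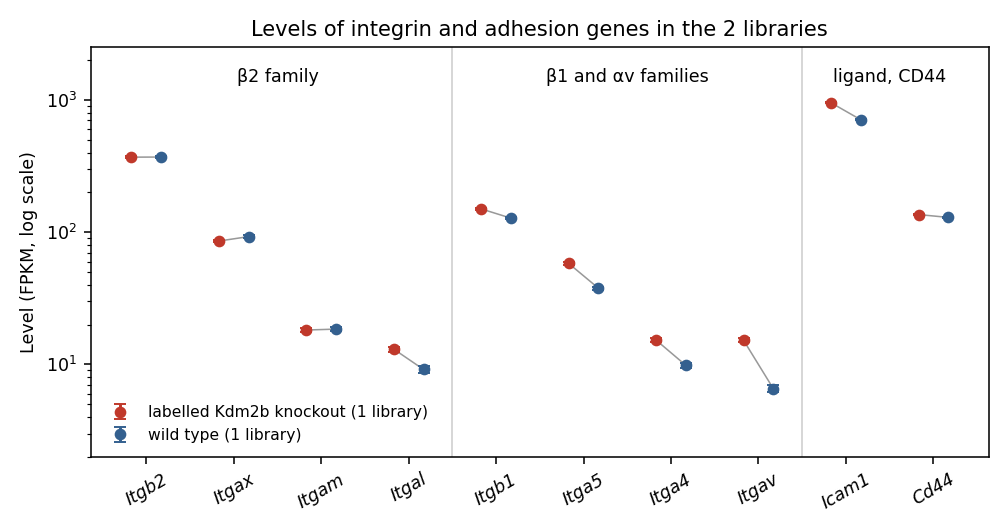
Level of each of the 10 genes in the library labelled Kdm2b knockout (red, left) and the WT library (blue, right), in FPKM on a log axis; error bars are 95% Poisson counting intervals, mostly smaller than the points. Itgb2 was at 369.5 and 370.2 FPKM, and the steepest line is that of Itgav, at 15.2 against 6.56 FPKM.

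Of the 10 genes, the 4 of β1 and αv integrins (Itgb1, Itga5, Itga4 and Itgav) were all higher in the library labelled Kdm2b-/-, these 3 α chains by more than Itgb1. Of all genes averaging 1 FPKM or more, 63.2% were also above 0, with a median log2 ratio of 0.10. Itgb1 (ENSMUSG00000025809, chromosome 8, 128685654 to 128733200) stood at 150.0 FPKM under the Kdm2b-/- label and 128 FPKM under WT. Its log2 ratio was 0.23 with an interval of 0.20 to 0.27, and 0.10 with the libraries scaled to a median ratio of 0. Itga5 (ENSMUSG00000000555, chromosome 15, 103344286 to 103366763) stood at 58.1 FPKM under the Kdm2b-/- label and 37.7 FPKM under WT (log2 ratio 0.61, interval 0.57 to 0.68). Itga4 (ENSMUSG00000027009, chromosome 2, 79255426 to 79333123) stood at 15.3 FPKM under the Kdm2b-/- label and 9.84 FPKM under WT (log2 ratio 0.59, interval 0.56 to 0.71). Both α chains were therefore about 1.5-fold apart, Itga5 by 1.54-fold and Itga4 by 1.55-fold in plain FPKM. Itga4 has the longest transcript of the 10, at 9767 bases.

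Itgav had the highest ratio of the 10 and was the one member past 2-fold. It (ENSMUSG00000027087, chromosome 2, 83724397 to 83806916) stood at 15.2 FPKM under the Kdm2b-/- label and 6.56 FPKM under WT, from about 2876 and 1262 fragments. The plain FPKM ratio was 2.32-fold, the log2 ratio on the FPKM + 1 scale 1.10, and the counting interval of the plain log2 ratio 1.12 to 1.31. These fragments and this interval rest on the longest transcript. With the median length of its transcripts, 1105 bases, the fragments were about 451 and 198. The interval was then 0.97 to 1.46, which reaches below 2-fold. Of the 9039 genes that averaged 1 FPKM or more over both libraries, 47 had a higher log2 ratio. The call rests on the scaling: the log2 ratio was 0.98 with the libraries scaled to a median ratio of 0, 0.99 with the trend of the ratio with transcript length and GC content removed, and 0.81 with 5 FPKM added in place of 1.

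Summed by partner, the α chains of β1 differed between the libraries and those of β2 did not differ by much. The 12 genes of α chains that can pair with β1, Itgav among them, summed to 97.03 FPKM under the Kdm2b-/- label and 61.8 FPKM under WT, which is 64.7% of the Itgb1 level under the Kdm2b-/- label and 48.4% under WT. Itga5 was the most abundant of them in each library, and Itga3, a laminin receptor chain, the most abundant outside the 10 genes, at 3.15 FPKM under the Kdm2b-/- label and 2.35 FPKM under WT. The 4 α chains of β2 summed to 117 FPKM under the Kdm2b-/- label and 120.3 FPKM under WT, or 31.7% and 32.5% of the Itgb2 level. With Gm49368 added the sums were 143 FPKM under the Kdm2b-/- label and 139 FPKM under WT. Both β chains thus exceeded the sum of their α partners in each library at the transcript level, which says nothing of the amounts of protein.

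**Figure D2:**
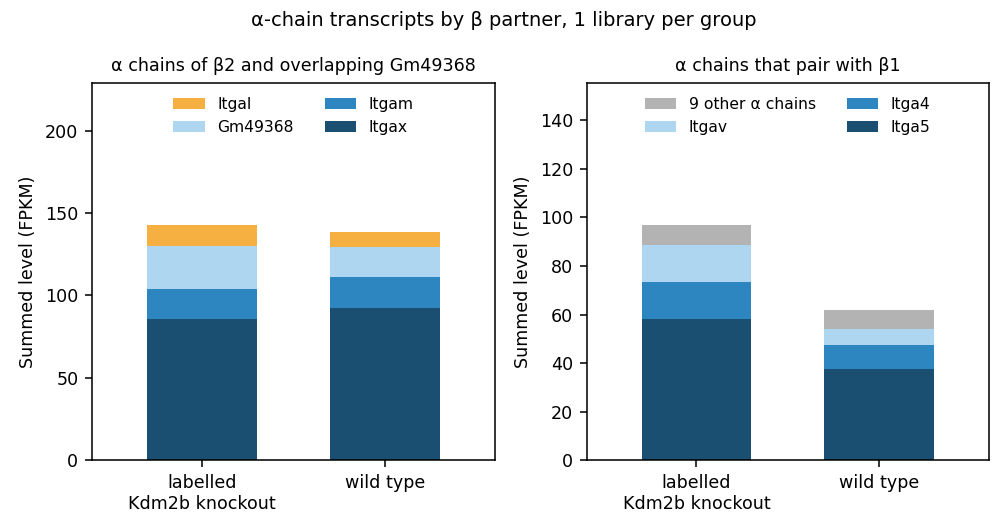
Summed FPKM of α-chain genes that pair with β2 (left panel, with the overlapping Gm49368 row) and with β1 (right panel), in the library labelled Kdm2b knockout (left bar of each panel) and the WT library (right bar). The β2 stacks reached 143 and 139 FPKM and the β1 stacks 97.03 and 61.8 FPKM.

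Icam1 was the most abundant of the 10 and higher in the library labelled Kdm2b-/-, while Cd44 was nearly level. Icam1 (ENSMUSG00000037405, chromosome 9, 21015985 to 21028817) stood at 952 FPKM under the Kdm2b-/- label and 709 FPKM under WT, from about 64711 and 49002 fragments, a log2 ratio of 0.43 with an interval of 0.41 to 0.44. Among the 9039 genes it was the 55th most abundant in the library labelled Kdm2b-/- and the 89th in the WT library. Cd44 (ENSMUSG00000005087, chromosome 2, 102811141 to 102901665) stood at 136 FPKM under the Kdm2b-/- label and 129 FPKM under WT, a log2 ratio of 0.07 with an interval of 0.04 to 0.10. Scaling to a median of 0 turned Cd44 to -0.06 and removing the length and GC trend turned it to -0.02. Cd44 has 9 annotated transcripts, and a gene-level value does not tell its splice variants apart.

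The order of the 10 genes was nearly the same in both libraries. In the library labelled Kdm2b-/- it ran from Icam1, Itgb2, Itgb1, Cd44, Itgax and Itga5 to Itgam, Itga4, Itgav and Itgal. In the WT library Cd44 stood above Itgb1 and Itgal above Itgav. Counting intervals of neighbours overlapped for Itga4 (14.8 to 15.7 FPKM) and Itgav (14.7 to 15.8 FPKM) in the library labelled Kdm2b-/-. In the WT library they overlapped for Cd44 (128 to 131 FPKM) and Itgb1 (126 to 129.9 FPKM), and for Itga4 (9.47 to 10.2 FPKM) and Itgal (8.67 to 9.67 FPKM), so neither order was resolved there. Even Itgal, the lowest of the 10 in the library labelled Kdm2b-/-, lay above 70.4% of the genes past the floor there.

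Read against all genes, 1 of the 10, Itgav, was at least 2-fold higher in the library labelled Kdm2b-/-, where the share of the 9039 genes was 0.863%, and 0 were at least 2-fold lower, where it was 1.02%. Among 8683 protein-coding genes these shares were 0.852% and 0.829%. At 1.5-fold, 3 were higher (Itgav, Itga5 and Itga4), against 4.7% of all genes and 4.69% of protein-coding ones, and 0 lower, against 2.8% and 2.56%. Itga4, at 0.586 against a limit of 0.585, was just inside. Itgav was the 1 gene still 1.5-fold higher with the libraries scaled to a median of 0, with equal upper quartiles, with a pseudocount of 5 FPKM and after removal of the trend with length and GC. After that removal 0.71% of all genes were 2-fold higher and 0.721% lower, while 4.04% passed 1.5-fold upward and 2.11% downward. Of all genes, 78 were 2-fold higher and 92 lower as deposited, 44 and 113 with scaling to a median of 0, and 96 and 76 with equal totals. The counting interval of the ratio lay above 0 for 7 members, below 0 for 1 and held 0 for 2, Itgam and Itgb2. These counts were unchanged when the median length of each gene's transcripts was used in place of the longest. The share of all genes with intervals off 0 was not computed, so the counts show nothing particular to the 10. With many fragments an interval can leave out 0 at a small ratio, as for Cd44 at 0.07, from about 20469 and 19815 fragments. The intervals were computed on FPKM as deposited and not under the other scalings. Some of those moved Cd44, Itgam and Itgb2 to the other side of 0, so the counts hold for the deposited scale only. The median log2 ratio of the 10 was 0.33, with a range of -0.11 to 1.10. The median of all genes past the floor was 0.10, and 63.2% of them were above 0. Scaling by 0.915 brings that median to 0 and the median of the 10 to 0.20.

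**Figure D3:**
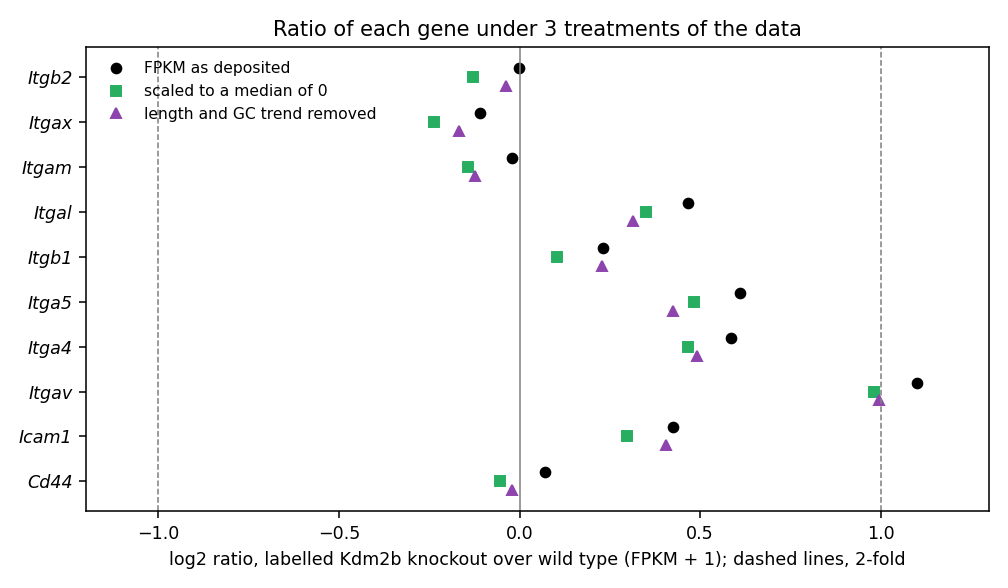
Log2 ratio of each of the 10 genes, labelled Kdm2b knockout over wild type on the FPKM + 1 scale, from FPKM as deposited (circles), after scaling to a median ratio of 0 over all genes (squares) and after removing the trend with transcript length and GC content (triangles). Itgav stayed near the 2-fold line, at 1.10, 0.98 and 0.99, and Cd44 changed side of 0.

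Over all genes the ratio was higher the longer the transcript, and the longest transcripts of the 10 genes ran from 2535 bases (Icam1) and 2970 bases (Itgb2) to 9767 bases (Itga4). Of 10 equal groups of genes by length, that with transcripts of 132 to 1200 bases had a median log2 ratio of -0.23, that of 1200 to 1734 bases -0.09 and that of 4877 to 6247 bases 0.23. In the group with the longest transcripts, 6249 bases and over, where Itgav (7054 bases) and Itga4 stand, the median was 0.29, and 1.33% of the genes were 2-fold higher. With the trend removed Itga4 stood at 0.49, Itga5 at 0.43, Icam1 at 0.41, Itgal at 0.31 and Itgb1 at 0.23. Itgax (-0.17), Itgam (-0.12) and Itgb2 (-0.04) stayed below 0; with the libraries scaled to equal FPKM totals Itgam and Itgb2 turned above it, at 0.07 and 0.09.

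**Figure D4:**
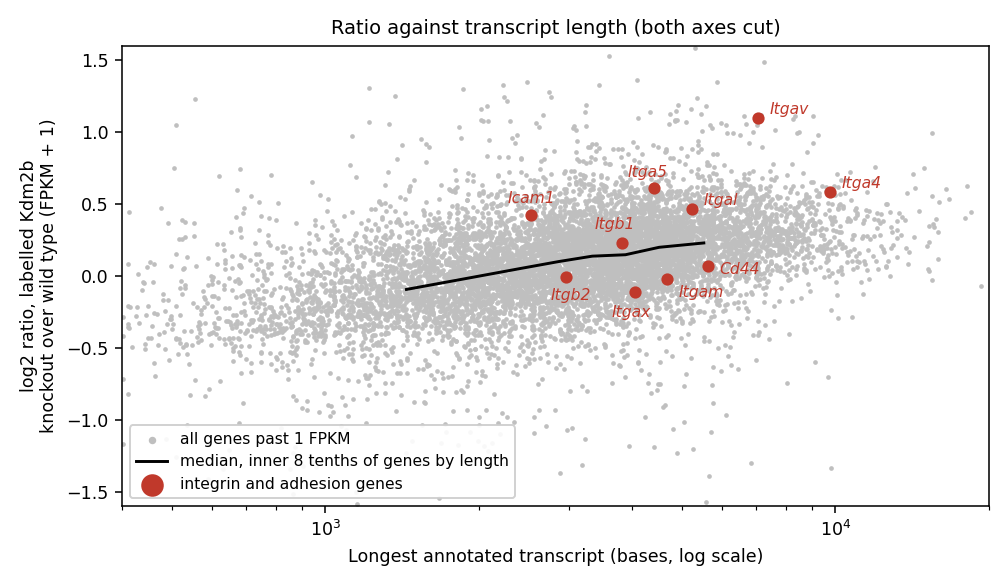
Log2 ratio, labelled Kdm2b knockout over wild type on the FPKM + 1 scale, against the longest annotated transcript in bases on a log axis, for genes past 1 FPKM on average (grey; genes beyond the axes are not shown), with the 10 genes in red and, as a line, the medians of the inner 8 of 10 equal groups by length. The line climbs from -0.09 to 0.23, Itgb2, Itgax, Itgam and Cd44 lie below it, and Itgav at 1.10 is the highest of the 10.

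Most other integrin chains were under the floor, while Itgb7 and Itgb5 reached levels among those of the 10 genes. Of 19 further subunit genes, 6 passed the floor of 1 FPKM on average and 0 were 2-fold apart. All 6 were above 0, against 63.2% of all genes. Their median log2 ratio was 0.23, or 0.05 with the trend removed, against 0.10 for all genes. Itgb7, the other β partner of α4, had the highest ratio, at 28.6 FPKM under the Kdm2b-/- label and 15.9 FPKM under WT (log2 ratio 0.81, interval 0.75 to 0.96). Among β partners of αv, Itgb5 stood at 16.4 FPKM under the Kdm2b-/- label and 14.6 FPKM under WT (0.16) and Itgb8 at 2.20 FPKM under the Kdm2b-/- label and 1.39 FPKM under WT (0.42). Itgb3, the β chain of the vitronectin receptor, was under the floor at 0.907 FPKM under the Kdm2b-/- label and 0.824 FPKM under WT, and Itgb6 was listed at 0 in both. Itga6 stood at 2.05 FPKM under the Kdm2b-/- label and 1.89 FPKM under WT and Itga9 at 1.07 FPKM under the Kdm2b-/- label and 0.957 FPKM under WT, and the intervals of both held 0. Itgae and Itgb2l were also listed at 0 in both.

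Selectins catch rolling leukocytes on vessel walls, and their list went both ways. Of 8 genes of selectins and their ligands past the floor, 5 (62.5%) were above 0 and 3 below, against 63.2% of all genes above 0. Their median was 0.19, against 0.10 for all genes, and none was 2-fold apart. Podxl, a sialomucin, stood at 3.10 FPKM under the Kdm2b-/- label and 1.26 FPKM under WT (log2 ratio 0.86), Cd34 at 3.30 FPKM under the Kdm2b-/- label and 2.26 FPKM under WT (0.40) and Cd24a at 88.3 FPKM under the Kdm2b-/- label and 66.8 FPKM under WT (0.40). E-selectin, Sele, stood at 5.89 FPKM under the Kdm2b-/- label and 8.06 FPKM under WT (-0.39), Selplg, the P-selectin ligand of leukocytes, at 18.6 FPKM under the Kdm2b-/- label and 21.3 FPKM under WT (-0.19) and Selp at 1.56 FPKM under the Kdm2b-/- label and 1.64 FPKM under WT (-0.04, interval -0.40 to 0.28).

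In the list of immunoglobulin-family and other cell-cell adhesion genes, 13 of 24 found passed the floor. Of these, 7 (53.8%) were above 0 and 6 below, against 63.2% of all genes above 0. Their median was 0.06, against 0.10 for all genes. Cdh2, or N-cadherin, was the 1 gene past 2-fold, at 5.31 FPKM under the Kdm2b-/- label and 1.97 FPKM under WT (log2 ratio 1.09, or 0.97 once detrended for length and GC). Of all genes 0.863% were 2-fold higher. F11r, the junctional protein JAM-A, stood at 15.9 FPKM under the Kdm2b-/- label and 9.63 FPKM under WT (0.67). Vcam1, the cell-surface ligand of α4β1, stood at 69.5 FPKM under the Kdm2b-/- label and 53.6 FPKM under WT (0.37). Icam2, another ligand of LFA-1, was at 1.19 FPKM under the Kdm2b-/- label and 0.960 FPKM under WT (0.16), with an interval that held 0. The lowest ratios were those of Cd48 (80.2 FPKM under the Kdm2b-/- label and 97.1 FPKM under WT, log2 ratio -0.27), Madcam1 (3.86 FPKM under the Kdm2b-/- label and 4.73 FPKM under WT, log2 ratio -0.24) and Cd200 (38.8 FPKM under the Kdm2b-/- label and 42.8 FPKM under WT, log2 ratio -0.14). After trend removal Cd48 turned to 0.11. Pecam1 was at 0.0291 FPKM under the Kdm2b-/- label and 0.0245 FPKM under WT.

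Among genes of integrin activation and of the adhesion site, none was 2-fold apart. The share above 0 and the median were both somewhat above those of all genes. Of 31 adaptor genes past the floor, 22 (71.0%) were above 0 and 9 below, against 63.2% of all genes above 0. Their median was 0.31, or 0.21 with the trend removed, against 0.10 for all genes. At least 1.5-fold higher were 2 of them, against 4.7% of all genes. Talin, which binds β tails and switches integrins on, is encoded by Tln1, which stood at 33.4 FPKM under the Kdm2b-/- label and 22.0 FPKM under WT (log2 ratio 0.58, or 0.29 with the trend removed). Kindlin-3, its partner in blood cells, is encoded by Fermt3, which stood at 17.2 FPKM under the Kdm2b-/- label and 17.7 FPKM under WT (-0.04), with an interval that held 0. The scaffold Bcar1 (3.34 FPKM under the Kdm2b-/- label and 1.49 FPKM under WT, log2 ratio 0.80), the Rap1 effector Apbb1ip (11.4 FPKM under the Kdm2b-/- label and 6.38 FPKM under WT, log2 ratio 0.75) and Rapgef1 (4.76 FPKM under the Kdm2b-/- label and 2.85 FPKM under WT, log2 ratio 0.58) had the highest ratios. The gene of a protein that binds the β1 tail, Itgb1bp1 (4.69 FPKM under the Kdm2b-/- label and 6.06 FPKM under WT, log2 ratio -0.31), Rap1a (36.2 FPKM under the Kdm2b-/- label and 41.4 FPKM under WT, log2 ratio -0.19) and Skap2 (12.4 FPKM under the Kdm2b-/- label and 14.3 FPKM under WT, log2 ratio -0.19) had the lowest.

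Of 11 adhesion kinase genes past the floor, 9 (81.8%) were above 0 and 2 below, against 63.2% of all genes above 0. Their median was 0.28, or 0.17 with the trend removed, against 0.10 for all genes. Syk, which signals downstream of β2 integrins, stood at 39.8 FPKM under the Kdm2b-/- label and 25.6 FPKM under WT (log2 ratio 0.62). Pip5k1c, which makes the lipid that recruits talin, stood at 10.9 FPKM under the Kdm2b-/- label and 7.18 FPKM under WT (0.54) and Csk, which holds Src-family kinases in check, at 14.4 FPKM under the Kdm2b-/- label and 10.5 FPKM under WT (0.43). The genes below 0 were those of the Src-family kinase Lyn (17.4 FPKM under the Kdm2b-/- label and 19.3 FPKM under WT, log2 ratio -0.14) and of Btk (8.79 FPKM under the Kdm2b-/- label and 9.91 FPKM under WT, log2 ratio -0.16).

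The genes of matrix ligands held ratios further from 0, in both directions. Of 16 past the floor, 14 (87.5%) were above 0, against 63.2% of all genes. Their median log2 ratio was 0.72, or 0.59 with the trend removed, against 0.10 for all genes. On the FPKM + 1 scale 6 were past 2-fold upward under the Kdm2b-/- label, against 0.863% of all genes. Past it downward was 1, against 1.02%. With the trend removed 3 stayed past 2-fold upward (Col1a1, Thbs1 and Col1a2) and 1 downward (Spp1). Fibronectin, a ligand of α5β1, is encoded by Fn1, which stood at 62.3 FPKM under the Kdm2b-/- label and 28.3 FPKM under WT (1.11, or 0.88 with the trend removed). Col1a1 (16.0 FPKM under the Kdm2b-/- label and 3.63 FPKM under WT, log2 ratio 1.87), Thbs1 (81.9 FPKM under the Kdm2b-/- label and 31.6 FPKM under WT, log2 ratio 1.35) and Col1a2 (24.2 FPKM under the Kdm2b-/- label and 9.67 FPKM under WT, log2 ratio 1.24) had the highest ratios, and the laminin and nidogen genes Lamc1 (1.01) and Nid1 (1.05) were also past 2-fold. The αv ligand osteopontin, from Spp1 (282 FPKM under the Kdm2b-/- label and 908 FPKM under WT, log2 ratio -1.69), and Mfge8, a bridge to dying cells, at 108 FPKM under the Kdm2b-/- label and 172 FPKM under WT (-0.66), went the other way. Lamb2 (1.20 FPKM under the Kdm2b-/- label and 0.918 FPKM under WT, log2 ratio 0.20) had the third lowest ratio. This list was written with earlier results of these libraries known, and its count is no independent evidence of a direction.

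Around Cd44, 17 genes of hyaluronan metabolism and of its partners passed the floor, 11 (64.7%) above 0 and 6 below. That share was near the 63.2% of all genes, and the median was 0.17, against 0.10 for all genes. Ezr, or ezrin, which ties the tail of CD44 to actin, stood at 103 FPKM under the Kdm2b-/- label and 64.7 FPKM under WT (log2 ratio 0.67). Mmp14, a protease that can cut CD44 from the surface, stood at 68.3 FPKM under the Kdm2b-/- label and 39.1 FPKM under WT (0.79) and Mmp9, which CD44 can hold there, at 2.83 FPKM under the Kdm2b-/- label and 1.54 FPKM under WT (0.59). Srgn, the core of the granule proteoglycan serglycin, was the 1 gene past 2-fold, and lower, at 219.7 FPKM under the Kdm2b-/- label and 468 FPKM under WT (-1.09, or -0.85 with the trend removed). Of all genes 1.02% were 2-fold lower. Cd74, which signals through CD44, stood at 32.9 FPKM under the Kdm2b-/- label and 59.3 FPKM under WT (-0.83), and Hyal2 had a ratio of -0.14 with an interval that held 0.

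**Figure D5:**
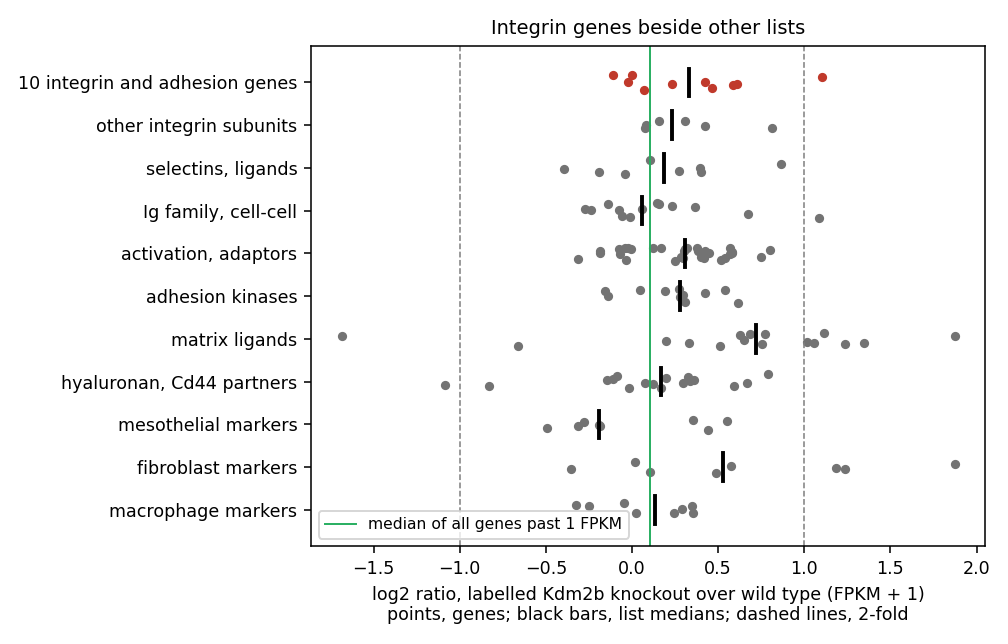
Log2 ratio, labelled Kdm2b knockout over wild type on the FPKM + 1 scale, of the 10 genes (red) and of the genes past 1 FPKM in other adhesion and marker lists (grey); black bars are list medians, and the green line, at 0.10, is the median of all genes past 1 FPKM. The medians run from -0.19 for mesothelial markers to 0.72 for matrix ligands, with 0.33 for the 10 genes.

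Markers of other cells that carry these integrins were measured in the same libraries. Fibroblasts express Itgav, Itga5, Itgb1 and the collagens. In the library labelled Kdm2b-/- 3 of the 8 fibroblast markers were at least 2-fold higher (Col1a1, Col1a2 and Col3a1), against 0.863% of all genes. With the trend removed 2 stayed so, against 0.71% of all genes. These were Col1a1 and Col1a2, which are also counted among the matrix ligands above. The summed level of all 8 fibroblast markers was 340 FPKM under the Kdm2b-/- label and 295 FPKM under WT. Most of both sums was Dcn, which was nearly level, so the sums say little of the other markers. Of these 8, 7 (87.5%) were above 0, against 63.2% of all genes, with a median of 0.53 against 0.10. Among the 7 were the defining markers Pdgfra (12.1 FPKM under the Kdm2b-/- label and 7.81 FPKM under WT, log2 ratio 0.58) and Dcn (251 FPKM under the Kdm2b-/- label and 248 FPKM under WT, log2 ratio 0.02). Lum (9.46 FPKM under the Kdm2b-/- label and 12.4 FPKM under WT, log2 ratio -0.35) had the lowest ratio. Of 8 mesothelial markers 3 were above 0, with sums of 107 FPKM under the Kdm2b-/- label and 106 FPKM under WT and a median of -0.19, Lrrn4 the highest (0.55) and Msln the lowest (-0.50). Upk3b stood at 32.6 FPKM under the Kdm2b-/- label and 25.4 FPKM under WT. The part of these cells in the higher Itgav, Itga5 and Itga4 was not tested, and in such a bulk sample fewer cells of a type and less RNA per cell cannot be told apart.

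Among markers of other blood cells, Igkc and Ighm of the B cell list and Pf4 of the platelet list were past 2-fold downward under the Kdm2b-/- label. The share of all genes was 1.02%. With the trend removed both B cell genes stayed past 2-fold and Pf4, the only gene of its list past the floor, did not (-0.81). Of the markers of T and NK cells or dendritic cells 0 passed the floor. Lymphocytes carry Itgal, Itga4 and Itgb7. Of 8 T and NK cell markers 0 passed the floor, with sums of 0.140 FPKM under the Kdm2b-/- label and 0.133 FPKM under WT, and 6 of them, the CD3 chains Cd3e, Cd3d and Cd3g and Cd8a, Nkg7 and Ncr1, had no value above 0. B cell markers summed to 2.86 FPKM under the Kdm2b-/- label and 27.3 FPKM under WT, mostly Igkc (1.47 FPKM under the Kdm2b-/- label and 18.9 FPKM under WT, log2 ratio -3.01) and Ighm (0.992 FPKM under the Kdm2b-/- label and 6.92 FPKM under WT, log2 ratio -1.99). The part of B cells in any difference was not tested. Cd79a was at 0.205 FPKM under the Kdm2b-/- label and 1.01 FPKM under WT and Ms4a1 at 0.0311 FPKM under the Kdm2b-/- label and 0.0874 FPKM under WT.

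Neutrophils carry much Mac-1. Their 7 markers summed to 15.2 FPKM under the Kdm2b-/- label and 14.4 FPKM under WT, nearly all of it S100a8 (14.6 FPKM under the Kdm2b-/- label and 13.8 FPKM under WT); S100a9 was at 0.256 FPKM under the Kdm2b-/- label and 0.453 FPKM under WT, and Ly6g, Retnlg and Mpo had no value above 0. Dendritic cells carry Itgax, and 0 of their 5 markers passed the floor, with sums of 1.05 FPKM under the Kdm2b-/- label and 0.911 FPKM under WT. Flt3 was at 0.00604 FPKM under the Kdm2b-/- label and 0 under WT, Zbtb46 at 0.575 FPKM under the Kdm2b-/- label and 0.441 FPKM under WT and Xcr1 at 0 in both. Of 5 platelet markers 1 passed the floor, Pf4 (17.6 FPKM under the Kdm2b-/- label and 40.9 FPKM under WT, log2 ratio -1.17). Itga2b was at 0.0827 FPKM under the Kdm2b-/- label and 0.0271 FPKM under WT, and Gp9 at 0 in both. Gp1bb was at 0.180 FPKM under the Kdm2b-/- label and 0.0147 FPKM under WT. Of its exonic bases 91.1% also belong to Sept5 on the same strand, so its own level is uncertain. Sept5 stood at 1.58 FPKM under the Kdm2b-/- label and 0.896 FPKM under WT. Of 5 eosinophil and mast cell markers 1, Siglecf, passed the floor. It stood at 0.533 FPKM under the Kdm2b-/- label and 1.58 FPKM under WT (log2 ratio -0.75). Prg2 was at 0.0890 FPKM under the Kdm2b-/- label and 0 under WT, and Epx at 0 in both. Endothelial markers summed to 1.92 FPKM under the Kdm2b-/- label and 1.84 FPKM under WT, of which Kdr alone passed the floor (log2 ratio 0.27), with Cdh5 at 0.487 FPKM under the Kdm2b-/- label and 0.828 FPKM under WT and Tie1 at 0.0185 FPKM under the Kdm2b-/- label and 0.00606 FPKM under WT.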

How the data were processed

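For each library the authors deposited 1 FPKM value per Ensembl gene, per the file headers. HISAT2 2.0.4, StringTie 1.3.0, edgeR and the builds GRCm38.p4 and mm10 are named by the submitters' processing notes. Which tool did what, the annotation release and any filter were not given in the sources used here. Libraries were paired-end and poly(A)-selected, per the labels' protocols, which describe no strand marking.

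Symbols (34267 of 34745 IDs), coordinates and longest-transcript lengths came from GENCODE M21, and 17 symbols with several IDs were summed. For low genes with 1 transcript, FPKM times length was a whole multiple of 1 step, within 0.02 of a fragment, for 92.6% under the Kdm2b-/- label and 92.2% under WT, which gave the depth. From these fragments came 95% intervals, exact Clopper-Pearson for ratios and exact Poisson for levels. PCR copies are not independent, so these reflect counting error alone. Ratios used FPKM + 1 and genes averaging 1 FPKM or more, and 2-fold was the size counted. The trend was removed by medians in 20 bins of length, then of GC content. With 1 library per group no test was possible.

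Members, lists and rules were chosen with earlier results of these data known; of 223 listed genes 220 were found. The rule for naming genes took Kdm2b, the 10 genes, the 3 highest and 3 lowest ratios past the floor of each adhesion list, and the highest, the lowest and the first 3 of each marker list. Other genes were chosen after their values were seen. A few genes of these lists, some of which the rule takes, are not reported here, though list counts and sums include them. Alternatives were other pseudocounts, scalings, floors and fold sizes. Python 3.11.15, numpy 2.4.6, pandas 2.3.3, scipy 1.17.1 and matplotlib 3.10.9 were used, and the calculations were tested on simulated data.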

Additional observations from a re-analysis of the deposited data

How the results depend on the processing

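No paired analysis was possible because each group had 1 library. One member, Itgav, was at least 2-fold higher as reported. This count was 0 with a pseudocount of 5 FPKM, with scaling to a median of 0, with the length and GC trend removed and at 4-fold, and 3 at 1.5-fold. It was the same with a pseudocount of 0.1 FPKM, scaling to equal upper quartiles or totals, and a floor of 5 FPKM or none. The count at least 2-fold lower was 0 in all of these. The median log2 ratio of the 10, 0.33 as reported, was 0.20 with scaling to a median of 0, 0.27 with equal upper quartiles, 0.42 with equal totals and 0.27 with the trend removed. Over all genes, 78 were 2-fold higher and 92 lower; these were 44 and 113 with scaling to a median of 0, 96 and 76 with equal totals, 174 and 137 with a pseudocount of 0.1 FPKM, 14 and 33 with 5 FPKM, and 35 and 48 with a floor of 5 FPKM, where 4750 genes were tested. Among protein-coding genes 1.68% were 2-fold apart, against 1.88% of all. The cause of these shifts was not tested. Adding Gm49368 to Itgam, an alternative chosen after seeing the data, moved Itgam to 0.26 and the median of the 10 to 0.34. Cd44, Itgam and Itgb2 changed side of 0 under a scaling, as given above with their values.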
